A study of Mus musculus with 4 samples.

Results

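Ntrk2, Ptprs, Slc6a6 and Adam8 are 4 of the 24378 gene rows measured in sorted basal keratinocytes of mouse dorsal skin. They encode a neurotrophin receptor, a receptor phosphatase, a taurine transporter and a membrane-anchored protease. They were selected on measured values, namely summed counts that were lower in cells that had been traced by Involucrin than in cells that had not, so the values of that contrast are given here as a description and without a test. The question addressed was how often each gene was detected in single cells, whether detection followed Krt10, a keratin of differentiating cells, and whether the genes marked the same non-traced cells.

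All 4 libraries came from 57-day-old female Ivl-CreERT2/R26-tdTomato mice that received tamoxifen intraperitoneally 2 days before the cells were isolated, at 10 µg/g per the labels, while the study's methods give another dose. In this model the Involucrin-driven, tamoxifen-dependent Cre switches on tdTomato, so a cell is traced (Tom+) once the transgene has recombined and non-traced (Tom−) otherwise. Live basal cells of the interfollicular epidermis, gated as CD49f+, LY6A+ and CD34−, were sorted into the Tom+ and Tom− fractions, and 2 libraries of each fraction were captured on Fluidigm C1 chips of 96 wells. The study used 2 mice, and the labels do not say which library came from which animal. Library 1 of each fraction carries the tag 2209 in its title and library 2 the tag 1710. Of 384 wells, 161 held at least 2000 gene UMIs (unique molecular identifiers, each standing for 1 captured transcript) and were kept as cells, which gave 35 and 58 Tom+ cells and 20 and 48 Tom− cells. The median depth was 3225 to 4525 UMIs per cell, and no column name was shared between libraries. A tdTomato UMI was present in 16 and 29 Tom+ cells, against 0 and 3 Tom− cells. Krt5 was detected in all 161 cells and Krt14 in 145. The 11 marker lists of other cell types summed to between 0 and 75.0 UMIs per 100000 in each library, and 14 cells carried at least 3 markers of another type. The infundibulum list held the highest value, in Tom+ library 2. In Tom+ library 1 the sebaceous gland list was above it, at 24.8 against 18.4 UMIs per 100000.

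Ntrk2 encodes TrkB, the receptor tyrosine kinase that binds brain-derived neurotrophic factor and neurotrophin 4. Ptprs encodes the receptor-type tyrosine phosphatase sigma, whose extracellular part binds heparan and chondroitin sulfate proteoglycans. Slc6a6 encodes the sodium- and chloride-dependent taurine transporter, which cells use to take up taurine as an osmolyte. Adam8 encodes a transmembrane protease of the disintegrin and metalloproteinase family, best known from leukocytes. Basal keratinocytes rest on the basement membrane and make Krt5 and Krt14, and on differentiation they reduce Krt14 and switch on Krt10 and Krt1.

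In the RefSeq annotation of GRCm38.p6 the genes lie on separate chromosomes, so none neighbours another. Ntrk2 spans chr13:58806472-59133970, Ptprs chr17:56412426-56476561, Slc6a6 chr6:91684048-91759063 and Adam8 chr7:139978932-139995207. The bases just outside the 5′ end of the Ntrk2 and Ptprs gene spans are shown because the libraries read 5′ ends and the genes were chosen for moving together. Both are printed 5′ to 3′ on the strand of the gene, and capitals mark the E-box CACGTG. The Ntrk2 stretch is chr13:58806319-58806471 on the plus strand and the Ptprs stretch is chr17:56476562-56476730 on the minus strand.
Ntrk2: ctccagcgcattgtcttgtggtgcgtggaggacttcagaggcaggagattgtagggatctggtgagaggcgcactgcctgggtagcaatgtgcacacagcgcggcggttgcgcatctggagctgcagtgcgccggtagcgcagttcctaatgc
Ptprs: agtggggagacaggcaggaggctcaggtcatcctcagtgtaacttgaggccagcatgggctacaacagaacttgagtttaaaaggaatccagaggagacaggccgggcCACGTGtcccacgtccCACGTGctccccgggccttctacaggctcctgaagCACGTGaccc

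Windows of 250 bases before each annotated start were searched on both strands for the E-box CACGTG, the cyclic AMP response element TGACGTCA, the AP-1 letters TGANTCA, the TEAD letters GGAATG, the GC box GGGCGG and the TATA letters TATAAA. The Ptprs window held 3 E-boxes, which begin 142, 126 and 91 bases before the start listed for that window. This start lies inside the gene span, downstream of the end of the printed stretch. By comparison, 6.02% of 32851 such windows held at least 1. A second Ptprs start, inside the gene, had a window with 3 GC boxes and 1 match to the TEAD letters, and the Adam8 window had 1 GC box. The GC box was found in 32.7% of windows and the TEAD letters in 12.6%. The Ntrk2 window held none of the 6 motifs, and no motif was shared by all 3 genes with an entry.

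Detection was first read per library. So that depth did not set it, every cell was thinned at random to 2000 UMIs, and a gene counted as detected with at least 1 UMI. Each gene was found in a larger share of Tom− than of Tom+ cells in both libraries, but each is sparse, and in total the 4 genes had 271 of 728896 UMIs. The intervals are exact 95% Clopper-Pearson intervals for counting error only, since cells of 1 library are not replicates.

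In libraries 1 and 2, Ntrk2 was detected in 5.71% and 1.72% of Tom+ against 20.0% and 18.8% of Tom− cells. The mean was 3.72% ± 2.82 (SD, n = 2) in Tom+ and 19.4% ± 0.884 (SD, n = 2) in Tom− libraries. Its UMI sums before thinning were 2 and 7 in Tom+ and 10 and 30 in Tom−. The Tom− libraries did not overlap the Tom+ libraries, whereas the intervals of both Tom− libraries (5.73% to 43.7% and 8.95% to 32.6%) overlapped those of both Tom+ libraries. Relative to all gene UMIs the level was 1.27 and 2.29 UMIs per 100000 in Tom+ and 12.3 and 16.3 in Tom−.

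For Ptprs the shares were 2.86% and 8.62% in Tom+ libraries against 40.0% and 35.4% in Tom− libraries. The means were 5.74% ± 4.08 and 37.7% ± 3.24 (SD, n = 2 each). This was the largest difference in share among the 4 genes, at 32.0 percentage points, although this draw of the thinning was near the upper end: over 20 other draws the difference ran from 21.1 to 33.0. The Tom+ libraries differed from each other before thinning, with a level of 1.27 against 6.55 UMIs per 100000, while the Tom− libraries held 25.7 and 16.3. The intervals of the Tom− libraries (19.1% to 63.9% and 22.2% to 50.5%) lay above those of the Tom+ libraries, which ended at 14.9% and 19.0%.

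Slc6a6 had the most UMIs of the 4 genes and was the one most often found in traced cells. Its shares were 11.4% and 12.1% in Tom+ libraries against 40.0% and 33.3% in Tom− libraries, with means of 11.7% ± 0.453 and 36.7% ± 4.71 (SD, n = 2 each). Its level was 5.72 and 10.5 UMIs per 100000 in Tom+ and 34.3 and 29.8 in Tom− libraries. The libraries of the 2 fractions did not overlap on either measure, although the intervals of the Tom− shares (19.1% to 63.9% and 20.4% to 48.4%) overlapped those of the Tom+ shares, which ended at 26.7% and 23.3%.

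Adam8 was the sparsest. After thinning it was found in 0 of 35 and 0 of 58 Tom+ cells, which at a floor of 3 counts allows shares of cells with a UMI of up to 8.57% and 5.17% (upper Clopper-Pearson bounds 10.0% and 6.16%), and in 10.0% and 14.6% of Tom− cells. Before thinning a single Tom+ cell carried 1 Adam8 UMI, and the Tom− libraries held 12 UMIs each. In Tom− library 1 those 12 UMIs lay in 2 cells, and 7 of them in 1 cell. In Tom− library 2 they lay in 9 cells with at most 3 UMIs each. The intervals of both Tom− libraries (1.23% to 31.7% and 6.07% to 27.8%) overlapped those of both Tom+ libraries.

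**Figure D1:**
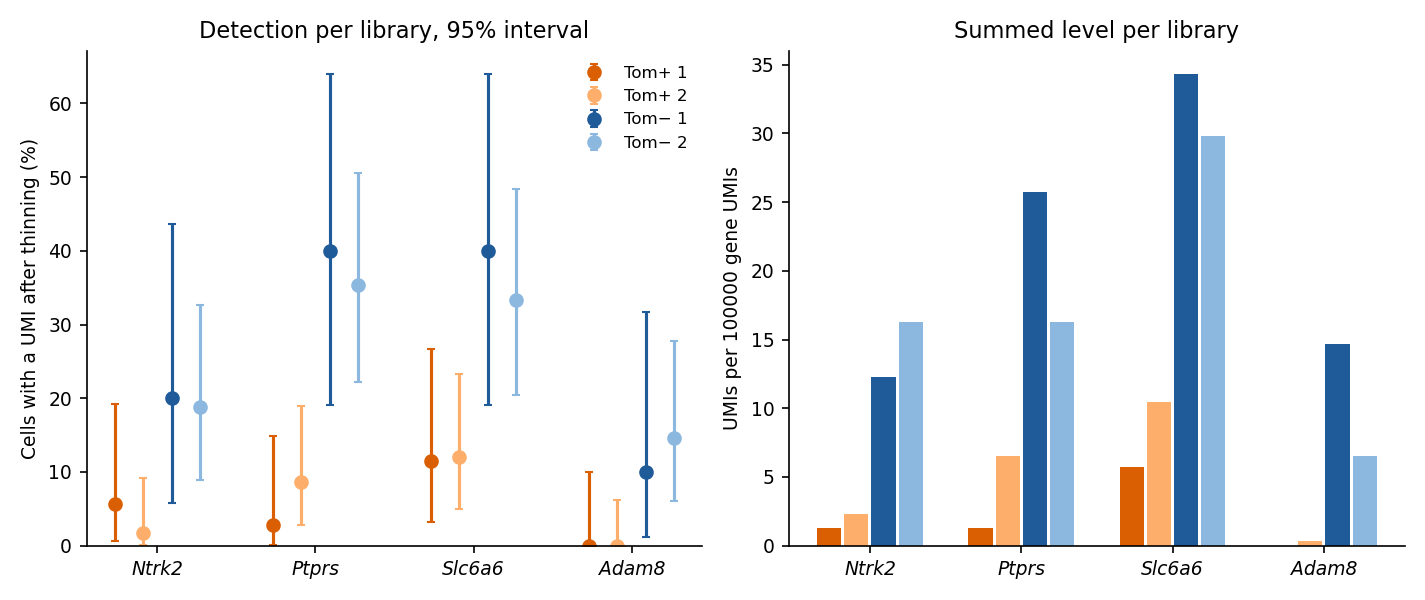
Left, share of cells with at least 1 UMI after thinning to 2000 UMIs (y axis, percent) for the 4 genes in the 4 libraries, with exact 95% intervals; right, UMIs per 100000 gene UMIs (y axis) summed over the cells of each library. For every gene both Tom− libraries sit above both Tom+ libraries, and Adam8 sits at 0 in the thinned Tom+ cells.

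In the fit from which the genes were chosen (edgeR on the 4 library sums, Tom+ over Tom−), the log2 fold change was −2.93 (SE 0.588) for Ntrk2, −2.19 (SE 0.532) for Ptprs, −1.92 (SE 0.394) for Slc6a6 and −5.19 (SE 1.17) for Adam8. The Adam8 value rests on 1 UMI in Tom+ cells. Without Tom+ library 2 the value of Ptprs was −3.95, and Adam8 did not pass the filter on low counts when either Tom− library was left out. The genes were the 4 with the most negative values among the genes called lower, and the next was Il1r2 at −1.89 (SE 0.395), just outside the choice. At an adjusted p of 0.05 the fit called 0.391% of 3070 genes lower and 0.847% higher in Tom+, and 19.2% of them had both Tom− libraries above both Tom+ libraries. Without the 14 cells that carried at least 3 markers of another cell type, Ntrk2 was at −2.42 (SE 0.728). Of the 18 Tom− cells with an Ntrk2 UMI before thinning, 12 carried any infundibulum marker and 4 carried at least 3, while 12 carried any bulge marker. This was not particular to Ntrk2: 18 of 32 Tom− cells with Ptprs and 19 of 35 with Slc6a6 carried any infundibulum marker. The share among all Tom− cells was not counted, and the part of such cells in the result was not tested. The neutrophil list had no UMI in either Tom− library. Of the 11 Tom− cells with an Adam8 UMI, 1 carried a T-cell marker, 5 any bulge marker and 5 any infundibulum marker. All Tom− cells in which any of the 4 genes was detected before thinning also had Krt5 and Krt14. Krt5 was detected in all 161 cells and Krt14 in 145, so this does not set these cells apart.

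Detection was then split by Krt10 within each library. A cell was called Krt10 positive with at least 6 of 2000 thinned UMIs, the study's cut-off on a log scale applied to the thinned counts. This put 25 of 35 and 35 of 58 Tom+ cells, but only 3 of 20 and 4 of 48 Tom− cells, in the positive class. In bulk sums of such cells, fewer cells that express a gene and less RNA per cell cannot be told apart. Shares per cell are given beside the sums but do not settle this, since cells with few transcripts can be missed. In Tom− library 2, for example, Slc6a6 was found in 33.3% of cells after thinning and in 54.2% before it.

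Cells with any of the 4 genes were mainly Krt10 negative in all 4 libraries. In Tom+ libraries at least 1 of the genes was detected in 50.0% and 43.5% of Krt10-negative cells, against 2 of 25 and 3 of 35 Krt10-positive cells. In Tom− libraries it was 76.5% and 79.5% of Krt10-negative cells against 0 of 3 and 0 of 4 Krt10-positive cells. The mean difference within libraries was −58.2 percentage points ± 23.1 (SD, n = 4), and it was negative in 4 of 4 libraries. Before thinning the 7 Krt10-positive Tom− cells also held no UMI of any of the 4 genes in 32673 gene UMIs, whereas the 61 Krt10-negative Tom− cells held 198. Against a floor of 3 UMIs over those 7 cells, the summed level of the 4 genes was at least 9.23-fold higher in the Krt10-negative cells, at 84.8 UMIs per 100000. For single genes the bound was 3.87-fold for Slc6a6, 2.38-fold for Ptprs, 1.87-fold for Ntrk2 and 1.12-fold for Adam8.

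Slc6a6 was the one member to pass the filter on low values, and it passed through its Krt10-negative sums: the Krt10-positive cells held 1 and 14 Slc6a6 UMIs in Tom+ libraries and none in Tom− libraries. It was detected in 40.0% and 17.4% of Krt10-negative against 0% and 8.57% of Krt10-positive Tom+ cells, and in 47.1% and 36.4% of Krt10-negative against none of the Krt10-positive Tom− cells. In UMIs per 100000 the level was 15.3 against 0.953 and 16.7 against 7.09 in Tom+ libraries, and 43.2 and 32.6 against 0 in Tom− libraries. The Krt10-negative class was higher in every library. In a fit of the 8 sums by Krt10 class with the library as a term, Slc6a6 fell by 2.41 on the log2 scale in Krt10-positive cells (SE 0.601, adjusted p = 0.0166, edgeR quasi-likelihood test with Benjamini-Hochberg adjustment). Since the filter kept it for the class where it is high, the fit without a filter is given too, where it was at −2.66 (adjusted p = 0.00860, edgeR) and 0.205% of 13681 genes were called lower. Another limit remains, because the members were chosen on library sums. Krt10-positive cells gave 302492 of 462688 Tom+ UMIs, and Krt10-negative cells gave 233535 of 266208 Tom− UMIs. The choice itself thus favours lower values in the Krt10-positive class, and p-values of members in this contrast are not independent support. The fit called 6.95% of 1366 genes, 2.86% lower and 4.10% higher, and 12.2% of these genes were lower in the Krt10-positive cells of every library. In the Tom+ libraries alone, where both classes held at least 10 cells, the value was −1.92 (adjusted p = 0.0357, edgeR), in a fit that called 3.08% of 1917 genes lower. When a library was left out, the call depended on which one, while the value changed little. It was lost without Tom+ library 1 (−2.17, adjusted p = 0.0577) and without Tom− library 2 (−2.22, adjusted p = 0.0725). It was kept without Tom− library 1 (−2.20, adjusted p = 0.0388, all by edgeR). The gene did not pass the filter without Tom+ library 2. The call was also lost when cells with a single Krt10 UMI counted as positive (−1.54, adjusted p = 0.222, edgeR).

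Ptprs was detected in 0% and 21.7% of Krt10-negative against 4.00% and 0% of Krt10-positive Tom+ cells. In Tom− libraries it was found in 47.1% and 38.6% of Krt10-negative cells and in none that were Krt10 positive. The share was lower in the Krt10-positive class in 3 of 4 libraries and higher in Tom+ library 1, where each class held a single Ptprs UMI before thinning. In UMIs per 100000, Ntrk2, Ptprs and Slc6a6 were lower in the Krt10-positive cells of all 4 libraries. So were 5.31% of the 13681 genes with at least 1 UMI and 12.2% of the 1366 genes past the filter. For Ntrk2, as for Ptprs, Tom+ library 1 held 1 UMI in each class. The lower values there come from the totals, 52374 Krt10-negative and 104907 Krt10-positive gene UMIs. Without a filter on low counts the log2 fold change of Ptprs was −3.40 (adjusted p = 0.0191, edgeR), in the same fit as above. The limit from the choice of genes holds here too.

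Ntrk2 was detected in 10.0% and 4.35% of Krt10-negative against 4.00% and 0% of Krt10-positive Tom+ cells, and in 23.5% and 20.5% of Krt10-negative Tom− cells. The share was lower in the Krt10-positive class in 4 of 4 libraries, by a mean of 13.6 percentage points ± 9.81 (SD). In Tom+ libraries this rested on 1 of 10 against 1 of 25 cells and on 1 of 23 against 0 of 35 cells. Before thinning, the shares in Tom+ library 2 were 8.70% and 8.57%. The positive class of the Tom− libraries held only 3 and 4 cells. How many of all genes had lower detection in 4 of 4 libraries was not counted. In the fit without a filter the log2 fold change of Ntrk2 was −2.28 with an adjusted p of 0.971 (edgeR), so a difference was not shown at this depth. Adam8 appeared in 11.8% and 15.9% of Krt10-negative Tom− cells and in no thinned Tom+ cell of either class, and without a filter it had a log2 fold change of −4.23 with an adjusted p of 0.676 (edgeR).

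**Figure D2:**
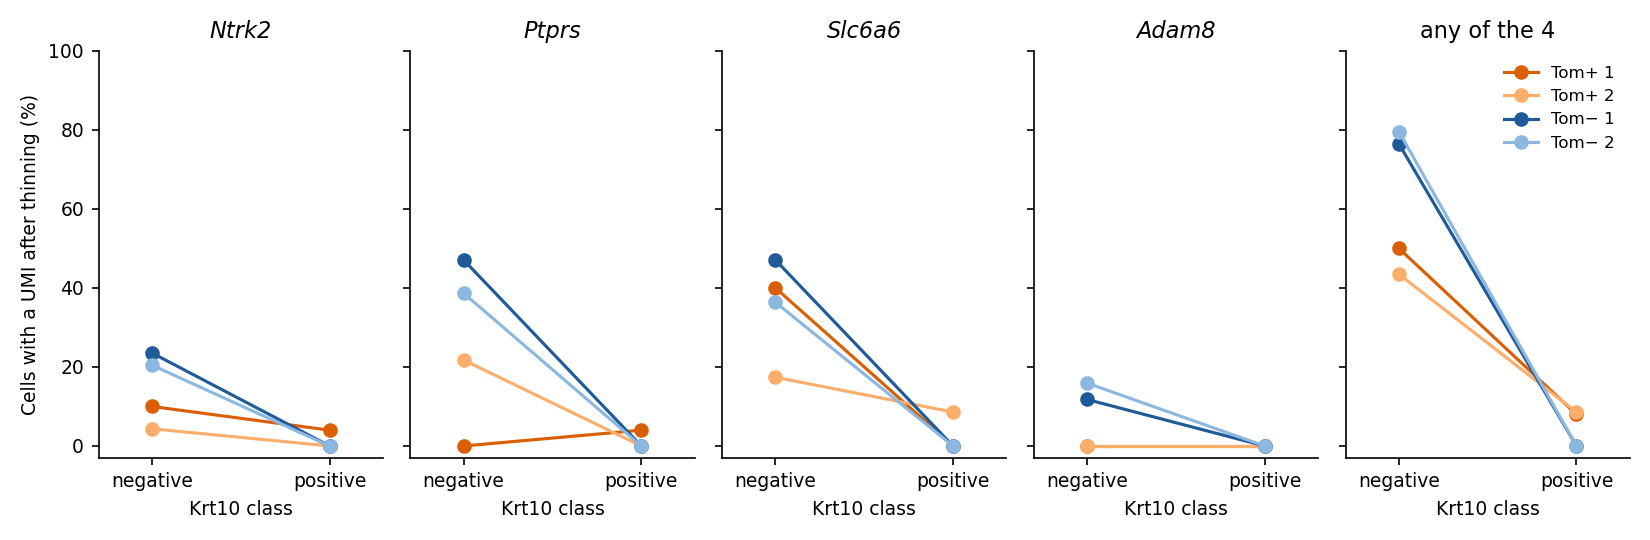
Share of cells with at least 1 UMI after thinning (y axis, percent) in the Krt10-negative and Krt10-positive cells (x axis) for each gene and for any of the 4, with a line for each library. The right panel drops from between 43.5% and 79.5% in the negative class to at most 8.57% in the positive class; the one rising line is Ptprs in Tom+ library 1.

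Fraction and Krt10 class could also be read together. Among Krt10-negative cells, where the 2 fractions share the class, any of the 4 genes was found in 15 of 33 Tom+ cells (45.5%, interval 28.1% to 63.6%) and in 48 of 61 Tom− cells (78.7%, interval 66.3% to 88.1%). For Ntrk2 the shares were 6.06% and 21.3%, for Ptprs 15.2% and 41.0%, for Slc6a6 24.2% and 39.3%, and for Adam8 0% and 14.8%. These are given as a description, because the genes were chosen for a difference between the fractions. The intervals pool the cells of 2 libraries per fraction and cover counting error only. Before thinning, any of the 4 genes was found in 66.7% of Krt10-negative Tom+ cells and in 86.9% of Krt10-negative Tom− cells. Within the Krt10-negative class the cells with 1 to 5 thinned Krt10 UMIs were 2 of 10 Tom+ against 9 of 17 Tom− cells in library 1, and 22 of 23 Tom+ against 8 of 44 Tom− cells in library 2, so the fractions differed in opposite directions in the 2 libraries.

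Whether the genes marked the same cells was asked in the 68 Tom− cells. After thinning, 20 of them held none of the genes, 29 held 1, 15 held 2, 4 held 3 and no cell held all 4. At least 2 genes were found together in 35.0% and 25.0% of the cells of the 2 libraries (19 of 68), and in 0 of 93 Tom+ cells, which have an upper interval bound of 3.89%. With all UMIs, co-detection rose to 31 of 68 Tom− cells and 10 of 93 Tom+ cells, and 1 Tom− cell held all 4 genes. Because each gene was chosen for lower counts in Tom+, rarer co-detection there follows from the shares of the single genes. The Tom+ values are therefore a description and add nothing to that contrast.

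The overlap between particular genes was small. Over 68 cells the Pearson r of ln(UMI + 1), centred within library, lay between −0.10 and 0.26 for the 6 pairs after thinning and between −0.10 and 0.31 before it. These correlations are across cells that share libraries and chips, with few UMIs behind each. In 2 of 6 pairs after thinning, and in 5 of 6 with all UMIs, a gene was found more often in cells with the partner than in cells without it.

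Ptprs and Adam8 were the pair with the highest value. Adam8 was detected in 24.0% of the 25 cells with Ptprs and in 6.98% of the 43 cells without it, and 6 of the 9 cells with Adam8 had Ptprs. The order was the same in both libraries, at 25.0% against 0% and 23.5% against 9.68%. Ntrk2 and Slc6a6 went opposite ways in the 2 libraries: Slc6a6 was found in 3 of 4 Ntrk2 cells in library 1 but in 1 of 9 in library 2. Ptprs and Slc6a6, the most often detected genes, met in 7 cells, and Slc6a6 was found in 28.0% of cells with Ptprs against 39.5% of cells without it.

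**Figure D3:**
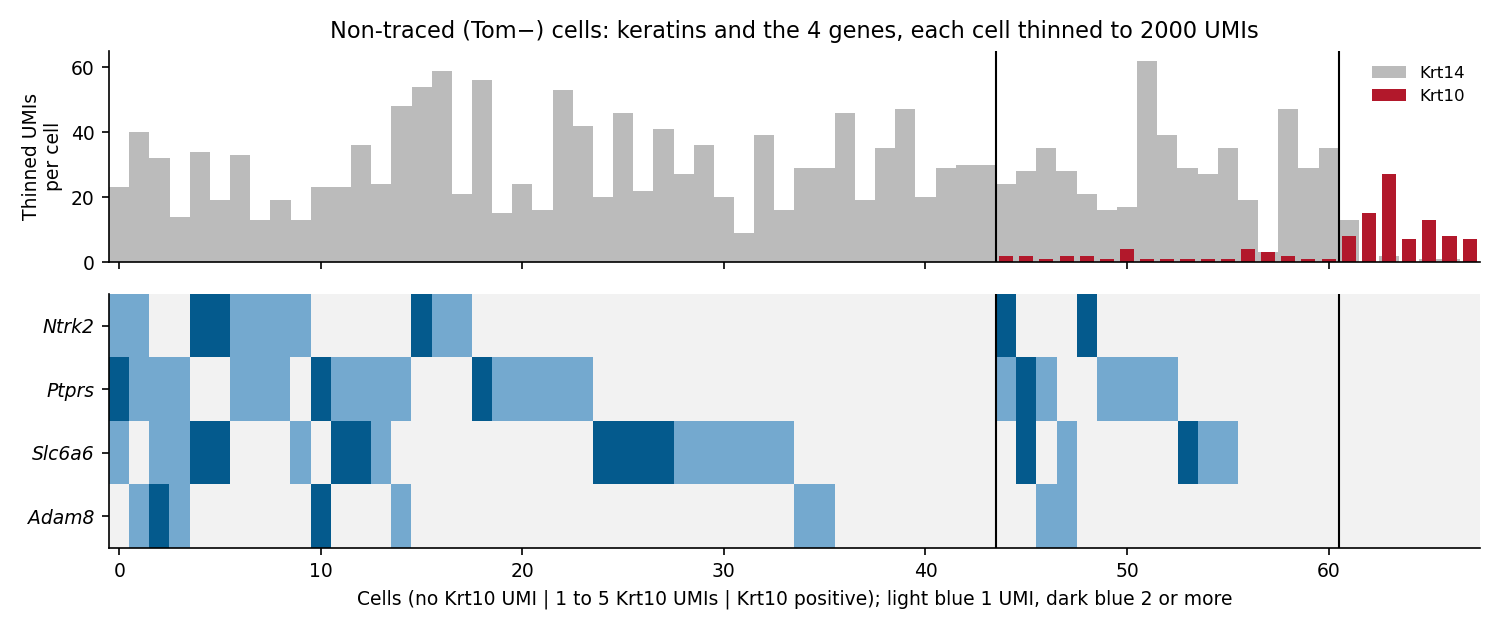
Each column is 1 of 68 Tom− cells, ordered by Krt10 class (black lines) and by the number of the genes detected. Above, thinned UMIs of Krt14 (grey) and Krt10 (red) per cell; below, the 4 genes, with light blue for 1 UMI and dark blue for 2 or more. The 48 cells with a member all lie left of the 7 Krt10-positive cells, and most of them hold 1 gene.

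The other transcripts of Tom− cells with and without the genes were compared as sums per library (48 against 20 cells). The median depth of cells with and without a member was 3513 and 4142 UMIs in library 1, and 3330 and 3145 in library 2. Of 745 genes tested, 17 passed the adjusted threshold (2.28%), 0.805% of genes higher and 1.48% lower in cells with a member. With the 4 sums the fit had 1 residual degree of freedom.

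Of the 11 genes lower in cells with a member, 5 were on the list of differentiation genes. Krtdap, a secreted keratinocyte protein, had 1 UMI in each library's cells with a member and 64 and 108 in the cells without. Krt1 fell by 4.32 (SE 0.493), the metallothionein Mt4 by 3.83 (SE 0.519), Krt10 by 3.20 (SE 0.344) and Sbsn by 2.56 (SE 0.467) on the log2 scale. Gm94, Ly6g6e, Gltp, Fam25c and Dmkn were the other named genes in this direction. All 5 tested genes of the differentiation list fell (median log2 fold change −3.83, against −0.03 over all genes tested). The 7 Krt10-positive Tom− cells all lay in the class without the genes, so these calls and the split by Krt10 are views of the same cells.

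In the other direction, Thbs1, the matrix glycoprotein thrombospondin 1, rose by 2.00 (SE 0.415) in cells with a member, from 15.9 and 55.4 to 118 and 169 UMIs per 100000. Serpinb2, an inhibitor of plasminogen activators, rose from 88.9 and 74.6 to 224 and 238 UMIs per 100000. Ifrd1 rose by 1.88 (SE 0.479), Csrp1 by 1.60 (SE 0.483), Krt14 by 0.86 (SE 0.209) and the second locus row of Ccl27a, whose copies may share reads, by 0.77 (SE 0.222). The Ccl27a row went from 397 to 1208 UMIs per 100000 in library 1, but only from 1202 to 1239 in library 2. Among the 61 Krt10-negative Tom− cells alone, 1 gene passed of 617 tested, namely Serpinb2 at 2.49 (SE 0.527, adjusted p = 0.00180, edgeR). There Thbs1 was at 1.38 (adjusted p = 0.724), Ifrd1 at 2.35 (adjusted p = 0.0938) and Krt14 at 0.32 (adjusted p = 0.998), all by edgeR, and the smaller class held 4 cells in one library. Which cells count as having a member changes with the random thinning: over 20 other draws the number of genes called ran from 0 to 31, Krtdap, Krt1, Mt4 and Krt10 each passed in 18, Serpinb2 in 11 and Thbs1 in 10. The other genes that rose depended more on the draw: Ifrd1 passed in 4, Krt14 and Ccl27a in 3 each and Csrp1 in 2. Among the named genes that fell, Ly6g6e passed in 7.

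**Figure D4:**
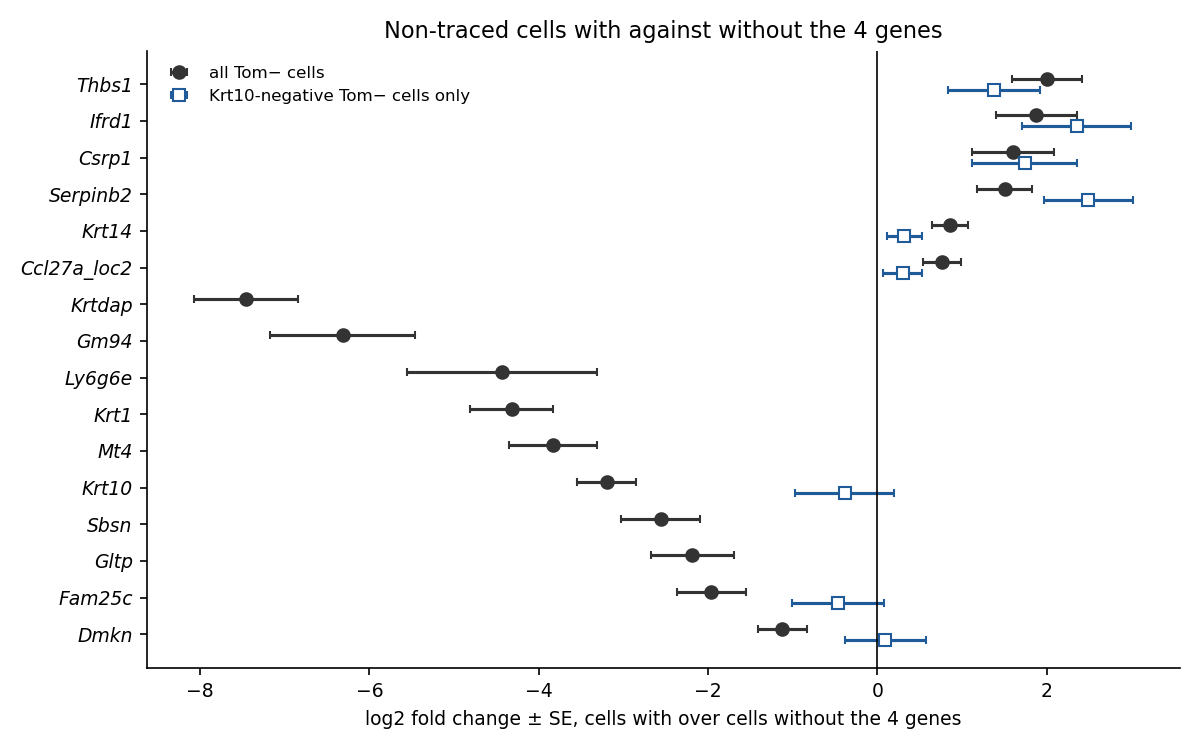
log2 fold change (x axis, with SE bars) of the named genes of the fit of Tom− cells with against without the 4 genes, over all Tom− cells (filled) and over Krt10-negative Tom− cells (open; missing where the gene was not tested). Differentiation genes such as Krt1 (−4.32) and Krt10 (−3.20) lie on the left for all cells, and the open points for Krt10 and Dmkn lie near 0.

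Mean Krt14 was higher in cells with a member in every library. The mean ln(UMI + 1) was 2.52 against 1.18 and 3.53 against 1.98 in Tom+ libraries, and 3.33 against 2.26 and 3.34 against 2.47 in Tom− libraries. This is not separate from the split by Krt10. Of the cells without a member, 23 of 28 and 32 of 45 were Krt10 positive in Tom+ libraries, and 3 of 7 and 4 of 13 in Tom− libraries. Among Krt10-negative Tom− cells the Krt14 log2 fold change was 0.32 (SE 0.208, adjusted p = 0.998, edgeR), so a difference in Krt14 within that class was not shown. Among the 20 Tom+ cells with a member, 5 were Krt10 positive, and 8 had a tdTomato UMI. Of the 48 Tom− cells with a member 4 had at least 3 of 12 cell cycle genes, and 1 of the 20 without did.

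The partners of the 4 proteins were mostly too sparse to compare. Of the listed neurotrophin genes, the TrkB ligands Bdnf and neurotrophin 4 (Ntf5) had no UMI in any of the 161 cells, which allows up to 0.412 UMIs per 100000 for each. Signalling adaptors of the family were detected, led by Sh2b1 with 64 UMIs and Gab1 with 30. A single gene of this list was tested between the fractions, and it did not pass.

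Proteoglycans that can bind receptor phosphatases were common in these cells. Sdc4 was detected in 155 of 161 cells at 135 to 158 UMIs per 100000 in the 4 libraries, and Sdc1 in 128 cells at 44.1 to 66.1. Ptprf, a phosphatase of the same family, was at 60.4 and 49.8 UMIs per 100000 in Tom+ and 47.8 and 41.7 in Tom− libraries. None of 5 genes tested of this list passed between the fractions. Agrn, the basement membrane proteoglycan agrin, was the one of 4 tested that fell in Krt10-positive cells, by 1.87 on the log2 scale (SE 0.494, adjusted p = 0.0248, edgeR).

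Of the taurine and osmolyte list, 4 of 10 genes were tested between the fractions and none passed, and none of the 2 tested by Krt10 class did. The amino acid transporter Slc38a2 was at 78.4 to 84.6 UMIs per 100000 in all libraries, and the creatine transporter Slc6a8, of the same family as Slc6a6, at 16.8 to 22.3. Csad, an enzyme of taurine synthesis, had 1.91 and 5.89 UMIs per 100000 in Tom+ and 8.58 and 10.8 in Tom− libraries. Of the ADAM list 4 of 10 were tested between the fractions and none passed. Adam17 had the most UMIs of it, at 13.4 and 7.53 per 100000 in Tom+ and 20.8 and 13.0 in Tom−, and Adam12, Timp1 and Timp2 had none.

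Genes of the basal state were placed beside the members by the same fits. Of 9 basal keratinocyte genes tested by Krt10 class, 4 fell in Krt10-positive cells: Krt14 by 3.41 (SE 0.392), Itga3 by 2.90 (SE 0.571), Col17a1 by 1.24 (SE 0.174) and Krt5 by 1.19 (SE 0.138). The median over the 9 was −1.19, against −0.02 over all genes tested. The matrix-associated YAP targets Thbs1 and Cyr61 fell by 2.60 (SE 0.427) and 1.80 (SE 0.360), and the decoy interleukin-1 receptor Il1r2 fell by 2.75 (SE 0.604). Slc6a6 was the last of the named genes in this direction, a list cut at 10, while 39 genes were called lower. The list also held S100a6, Cbr2, Lamb3, Fcgbp and Ftl1. The place of Slc6a6 in it is a description, since the choice of members favours lower values in the Krt10-positive class.

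The genes whose counts went most with each member over the 68 Tom− cells were read among 1768 genes (1769 for Adam8). For Adam8 they included Esyt2, Prnp, Ifrd1 and Cldn1, with r of 0.47 to 0.56 over cells centred within library. All 9 cells with Adam8 had Cldn1, a tight junction protein, which was found in 31 of 68 cells. For Ntrk2 they were Ptrf, Tceb1, Psma5, Ptn and 1810058I24Rik (r of 0.42 to 0.46). Ptn, which encodes the secreted protein pleiotrophin, was found in 10 cells, 6 of them with Ntrk2. For Ptprs they were Gm6682, 1810011O10Rik, Psmg2, Aebp2 and Ptp4a2 (0.36 to 0.42), and for Slc6a6 Clk1, Eppk1, Mrps16, Dst and Sbds (0.35 to 0.39). These values are the highest of many comparisons over few cells and are a description.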

How the data were processed

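UMI counts per gene and well, deposited by the authors without normalization, were used as given (Fluidigm C1, 5′ STRT chemistry; the submitters' processing notes name mm10 and GRCm38). The aligner is not given in the sources used here. Spike-in rows (100) and reporter rows (9) were kept out of the 24378 gene rows. Wells with at least 2000 gene UMIs were cells; no doublet caller was run. Each cell was thinned to 2000 UMIs (seed 1; 20 other seeds as alternatives). The counts of the cells were summed per library, or per library and class, and tested with edgeR 4.0.16 (quasi-likelihood, TMM, filterByExpr, Benjamini-Hochberg 0.05), with the library as a term for classes. The tests were tested on simulated data: at 4-fold changes 78.7% (fractions), 100% (Krt10 class) and 90.8% (member class) of changed genes were recovered. False calls were 6 of 179, 3 of 194 and 2 of 190. The changed genes were drawn from genes past the filter, with 1 spread for all genes. Recovery of genes below the filter, as 3 of the members were by Krt10 class, was therefore not measured. DESeq2 1.42.0 and limma 3.58.1 (R 4.3.3) were alternatives. Since separate cultures or animals are not labelled per library, p-values measure the spread between these sums. Besides the 4 genes and lists, up to 10 called genes per direction with 1 sign in every library, largest first, and the 5 most alike genes per member were named. The members and lists were chosen with earlier results of these data known. Some values of genes that these rules name are not reported here.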

Additional observations from a re-analysis of the deposited data

How the results depend on the processing

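Under the alternatives run, the Tom− minus Tom+ difference in share kept its sign for all 4 genes, while its size moved beyond the spread between libraries in several settings. With all UMIs the Ntrk2 difference was 18.9 percentage points, and without the 5% of cells with the most UMIs it was 11.8. With a minimum of 1000 UMIs, and thinning to 1000, the differences were 10.7 (Ntrk2), 12.6 (Ptprs), 11.0 (Slc6a6) and 5.78 (Adam8), and with a minimum of 5000 UMIs they were 7.50 (Ntrk2) and 17.0 (Ptprs). Over 20 other draws Ptprs had a mean of 26.2. The share of Tom− cells with at least 2 of the genes, a mean of 30.0% over the libraries, was 44.0% with all UMIs and 12.4% with a minimum of 1000. The cause was not tested.

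Between the fractions 38 genes were called. A replicate block on the title tag called 116, 38 of them shared with the fit without it. The labels do not say that a tag marks an animal, and with 2 pairs the deviations of same-tagged libraries had r = 0.13 over 3070 genes. Leaving out a library gave 27 to 65 calls (65 without Tom− library 1, and 27 without Tom− library 2), a minimum of 5000 UMIs gave 8, and leaving out the Tom− cell with the most Adam8 UMIs, chosen after seeing the data, gave 20. All log2 fold changes of the members stayed negative. Without Tom+ library 2 Ptprs was at −3.95 and Adam8 at −6.83, and without Tom+ library 1 Ptprs was at −1.59.

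By Krt10 class, 95 genes were called, against 62 without a filter on low counts, 40 with a minimum of 5000 UMIs, 15 with 1 Krt10 UMI as the limit and 35 in the Tom− libraries only. Leaving out a library gave 70 to 107. Slc6a6 was negative under every alternative that tested it. It lost its call with 1 Krt10 UMI as the limit (−1.54), without Tom+ library 1 and without Tom− library 2. Without a library its log2 fold change ran from −2.22 to −2.17, and 19 of 20 other draws passed.

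For Tom− cells with against without a member, 17 genes were called, against a mean of 11.3 (0 to 31) over 20 other draws. DESeq2 called 5. Leaving Ntrk2, Ptprs or Adam8 out of the class gave 10, 6 and 5, and the Krt10-negative cells, a setting added after seeing the data, gave 1. edgeR called 0 with a minimum of 5000 UMIs and 0 with at least 2 genes as the class (11 and 46 genes at an unadjusted p under 0.05). Dmkn reversed in the Krt10-negative cells (0.093). No library could be left out of this fit, since 1 library leaves no residual degree of freedom.

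Depth and cell number limit what can be read: the median depth was at most 4525 UMIs per cell in any library, and 7 Krt10-positive Tom− cells carry the contrast in that fraction.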
